A study of Homo sapiens with 12 samples.

Results

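The ligand-induced binding sites of the glucocorticoid receptor NR3C1 were described in SUPT-1 cells, an established cell line of human T-cell acute lymphoblastic leukaemia, made to overexpress wild-type STAT5B. All regions of the 2 deposited NR3C1 lists of this line on chromosomes X, Y and those with a number were taken, which gave 997 of the 11908 regions in the 8 lists of the series. The tested library came from cells given prednisolone, a synthetic glucocorticoid, at 250 µg/ml for 16 hours and held 995 regions. The other came from cells without prednisolone, called untreated here, and held 2 regions. Both libraries carried the same doxycycline-inducible wild-type STAT5B, and both lists were labelled Dox, for doxycycline. Both were grown under puromycin selection for the inducible cells. Both were ChIP-seq libraries, in which DNA bound by NR3C1 is pulled down with an antibody and sequenced. The series also held NR3C1 and STAT5B libraries of a line that overexpressed the activating mutant N642H, and STAT5B libraries of the WT line. There was 1 library for each antibody, line and treatment, so no value has a replicate check and variation between cultures is unknown. No RNA was measured in the data used, so the T-cell identity of the line could not be checked against expressed markers.

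NR3C1 is a nuclear receptor that rests in the cytoplasm with heat shock chaperones and co-chaperones. A ligand such as prednisolone releases it to the nucleus, where it binds DNA as a dimer at palindromes built from the hexamer AGAACA, or at single hexamers beside other factors. In lymphoid cells glucocorticoids are known for the arrest and death of T-lineage blasts, and both activated and repressed genes are known among the receptor's targets. Each deposited region carried a fold, the ratio of reads piled up at its highest point (the summit) to the local background, with 1 added to both. A fold is therefore lower than the plain ratio of the reads to the background printed below. Each region also carried a −log10 q, the authors' measure of how unlikely that pileup was. Both are the authors' values for each region. The deposited lists held regions with a −log10 q of at least 2.

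Of the 995 regions called with prednisolone, 993 had no untreated counterpart (99.8%, exact Clopper-Pearson 95% interval 99.28 to 99.98). Both untreated regions were called again with prednisolone. They lay beside PGAM1, a glycolytic enzyme gene, and at COX17, which encodes a copper chaperone of cytochrome oxidase. The region beside PGAM1 (chr10:97425848-97426121 with prednisolone, chr10:97425964-97426101 untreated) had a fold of 23.2 with prednisolone and 17.99 untreated, with −log10 q of 48.1 and 26.9. The COX17 region (chr3:119677050-119677281 with prednisolone, chr3:119677048-119677220 untreated) had a fold of 16.9 with prednisolone and 16.7 untreated, with −log10 q of 32.8 and 24.5. The fold beside PGAM1 was thus higher with prednisolone, and the COX17 folds were nearly alike. All other sites were called only with the ligand.

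The depth of the libraries is not in the lists, so the reads at each summit were solved from fold and −log10 p. At the PGAM1 summit 44 reads were stacked with prednisolone, over a background of 0.825 reads, and 26 reads untreated, over 0.501 reads. At COX17 there were 38 reads over 1.19 with prednisolone and 24 reads over 0.501 untreated. The untreated library therefore held more reads at these sites than the 8 reads of the smallest pileup called with prednisolone. The depth of the untreated library elsewhere is not in the files used here, and the part of depth in the length of the lists was not tested. Neither site held a STAT5B region in the WT line, and both were NR3C1 regions in the N642H line with prednisolone (fold 31.4 beside PGAM1 and 29.0 at COX17) and untreated (24.2 and 22.96).

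Sequence could be read where a region met a RefSeq promoter window, which runs from 250 bases before to 50 bases after a gene's start on GRCh38.p14. Such windows were met by 50 of the 995 regions (5.03%), and 38 summits lay within one. The stretches below are the parts of windows covered by a region with prednisolone, read along the gene's strand. The 2 sites called in both libraries and FAM13A, which had the highest −log10 q (53.4) of the ligand-induced regions with their summit in a window, come first, with the 15 bases around the prednisolone summit in capitals. They show what kind of sequence carried NR3C1 signal with and without the ligand.

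LOC644215 (the neighbour of PGAM1, chr10:97426008-97426121, minus strand, fold 23.2): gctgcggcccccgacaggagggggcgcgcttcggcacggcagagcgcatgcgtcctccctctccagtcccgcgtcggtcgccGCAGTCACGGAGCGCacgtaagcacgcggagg

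COX17 (chr3:119677050-119677253, minus strand, fold 16.9): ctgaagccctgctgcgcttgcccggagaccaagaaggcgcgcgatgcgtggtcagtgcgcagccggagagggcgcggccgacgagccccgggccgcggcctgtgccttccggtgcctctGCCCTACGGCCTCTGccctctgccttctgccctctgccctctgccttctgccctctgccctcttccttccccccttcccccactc

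FAM13A (chr4:88823183-88823384, minus strand, fold 22.1): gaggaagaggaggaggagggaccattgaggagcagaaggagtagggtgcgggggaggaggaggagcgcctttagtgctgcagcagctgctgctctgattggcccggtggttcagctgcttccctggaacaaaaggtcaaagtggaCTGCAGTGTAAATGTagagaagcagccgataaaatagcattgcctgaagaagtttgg

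G and C made up 74.6% of the PGAM1 stretch, 71.6% of the COX17 stretch and 54.5% of FAM13A, against 57.5% over all promoter windows. None of the 3 held AGAACA or its complement TGTTCT. The next 4 stretches are windows of genes with a hexamer in the covered part, with the hexamers in capitals. RFESD encodes a Rieske iron-sulfur domain protein, GNA15-DT is a divergent transcript of a G protein gene, ERAP2 encodes an aminopeptidase that trims peptides for antigen presentation, and PPP1CC a catalytic subunit of protein phosphatase 1. Their G and C content was 74.4% for RFESD, 67.2% for PPP1CC, 53.1% for GNA15-DT and 38.1% for ERAP2, so ligand-induced stretches reached the level of those also called untreated.

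RFESD (chr5:95646691-95646928, plus strand, fold 23.3): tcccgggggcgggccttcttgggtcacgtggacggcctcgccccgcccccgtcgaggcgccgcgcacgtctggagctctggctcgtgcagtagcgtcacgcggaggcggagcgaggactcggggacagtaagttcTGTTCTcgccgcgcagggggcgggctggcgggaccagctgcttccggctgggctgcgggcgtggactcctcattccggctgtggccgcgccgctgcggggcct

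GNA15-DT (chr19:3155207-3155319, minus strand, fold 9.86): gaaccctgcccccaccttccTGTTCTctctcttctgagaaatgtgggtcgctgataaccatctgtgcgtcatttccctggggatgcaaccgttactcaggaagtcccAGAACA

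ERAP2 (chr5:96876364-96876502, plus strand, fold 7.73): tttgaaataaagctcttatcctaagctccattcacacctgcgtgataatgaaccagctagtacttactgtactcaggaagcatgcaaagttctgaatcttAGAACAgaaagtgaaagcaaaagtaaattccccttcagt

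PPP1CC (chr12:110742842-110742963, minus strand, fold 8.71): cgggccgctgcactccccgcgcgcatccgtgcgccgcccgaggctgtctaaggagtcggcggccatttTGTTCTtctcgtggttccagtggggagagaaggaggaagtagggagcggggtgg

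Over the 62 windows met by a region, 8 held the hexamer AGAACA on either strand (12.9%, 5.74 to 23.9), against 14.8% of all 34943 windows. In 6 of the 62 a hexamer lay in the part covered by the region. The interval treats windows as independent, although some overlap or share a region. The core palindrome GNACANNNTGTNC was in 1 of the 62 windows (1.61%) and in 0.389% of all windows, and in that 1 window it lay outside the part covered by the region. The STAT motif TTCNNNGAA was in 3 of the 62 (4.84%) and in 7.66% of all windows. For the hexamer the share of all windows thus lay within the interval of the windows met by NR3C1. The sequence under the remaining regions, which lay outside promoter windows, was not analysed here.

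The ligand-induced list was a long slope with a short steep head. The median fold was 8.68, with 25% of regions below 6.88 and 25% above 12.8, and the range was 3.01 to 76.9. A fold of at least 10 was reached by 383 regions (38.5%, 35.5 to 41.6), of at least 20 by 117 (11.8%, 9.82 to 13.9) and of at least 50 by 8. The strongest 100 regions held 30.6% of the summed fold above 1, and 235 regions held 50% of it. In reads, the median summit had 19 and the highest 162, and the most common local background was 1.118 reads, in 210 regions. Only 1 region had a background of 10 times the lowest shared level of 0.619 reads or more.

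**Figure D1:**
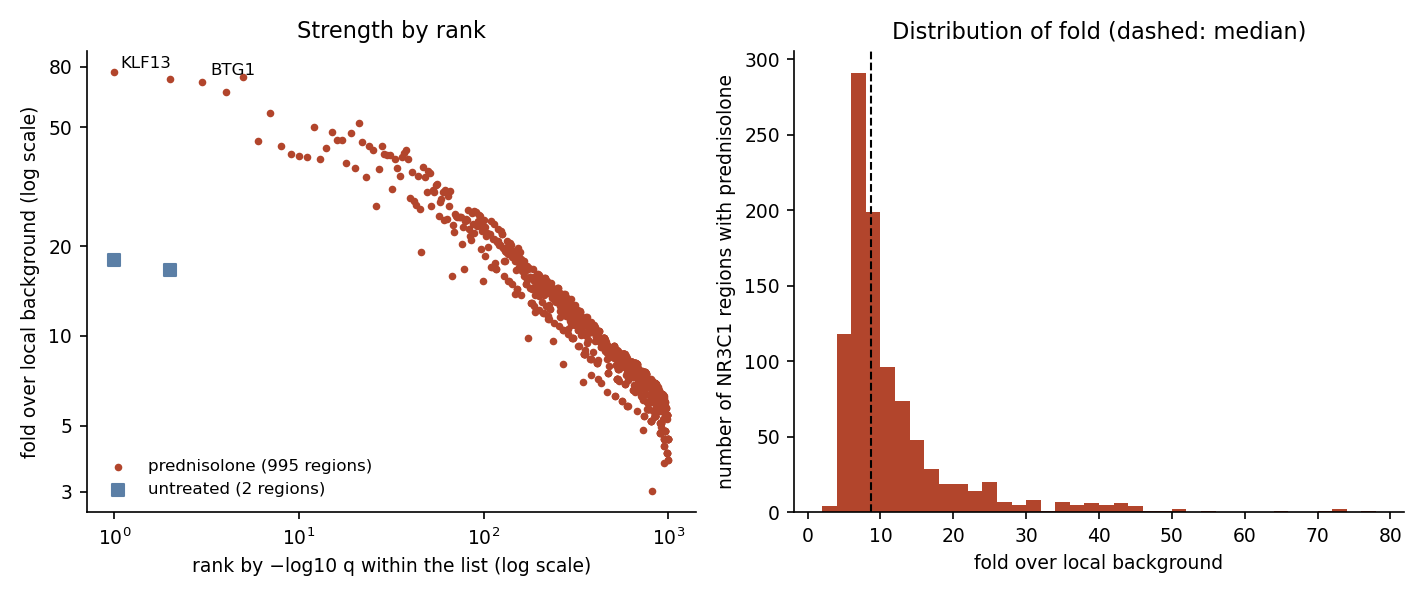
Left, fold over local background against rank by −log10 q (both axes logarithmic) for the 995 NR3C1 regions with prednisolone (circles) and the 2 untreated regions (squares); right, number of regions with prednisolone by fold, with the median of 8.68 dashed. The 2 untreated regions, at folds of 17.99 and 16.7, lie below the head of the prednisolone list, which reaches 76.9 at KLF13.

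The head of the list included sites at textbook glucocorticoid targets and near regulators of growth. By −log10 q, the strongest region lay in KLF13, a Krueppel-like transcription factor gene (chr15:31365576-31366197, fold 76.9, 161 reads, −log10 q 250). The second by that order, with a −log10 q of 244, lay 454 bp inside the start of FKBP5, the co-chaperone that holds the receptor in its inactive state (chr6:35727801-35728463, fold 73.0, 162 reads). The antiproliferative genes BTG1 and TOB1 were nearest to the next ones, at 109424 bp (chr12:92030602-92031064, fold 70.8) and 41456 bp (chr17:50909127-50909718, fold 65.8). By fold alone, a site on X near TSC22D3 came second (fold 73.8, −log10 q 209). Among the 20 strongest regions by −log10 q were also sites in CCND3, which encodes cyclin D3 (fold 39.8), in the kinesin gene KIF3C (fold 45.1), in the kinase gene CDK15 (fold 45.4) and in USP53 (fold 47.8). Sites outside genes lay 18274 bp from CXCR4, the receptor for CXCL12 (fold 45.4), and 9864 bp from ZFP36L2, which encodes an mRNA-decay factor (fold 50.1). A second region of ZFP36L2, 90817 bp away, had a fold of 40.9.

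Further members of the 20 lay in SPEF2 (fold 40.0), 9505 bp from SRP14, a signal recognition particle gene (fold 39.1), 14777 bp from GRAMD2B (fold 48.1), 6411 bp from HTR5A, a serotonin receptor gene (fold 37.9), and 12625 bp from RCSD1 (fold 36.7). Nearness does not make a gene a target. The SPEF2 site, for example, is also 95128 bp before the start of IL7R, the interleukin 7 receptor gene. Of the 20 strongest regions 8 lay inside a protein-coding gene and 5 had no such gene within 20 kb, and for all regions 305 of 995 had none (30.7%, 27.8 to 33.6).

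At the weak end, the lowest −log10 q was 2.03, at a region 38741 bp from LAT, an adaptor of T-cell receptor signalling (fold 3.83, 16 reads), and at one in MTSS1 with the same values. The next, 68406 bp from S1PR3, had a −log10 q of 2.50. Nothing below that limit was listed. Regions were narrow, with a median width of 172 bp and a range of 82 to 1548 bp. The widest lay 5461 bp before KLF9, a Krueppel-like factor gene induced by glucocorticoids (1548 bp, fold 41.1), then came the distal ZFP36L2 region (760 bp) and one in SH3TC1 (715 bp, fold 17.2). Across the 995 regions fold and width had a Spearman correlation of 0.668, a description of regions that share 1 library.

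Most ligand-induced summits lay inside genes or far from them, and few at gene ends. Protein-coding genes held 496 of the 995 summits. With a gene end defined as the 1 kb to either side of a gene's start or end, 94 regions lay at gene ends (9.45%, 7.70 to 11.4), a class that makes up 2.35% of the sequence between the first and last gene of each chromosome. Inside genes and away from their ends were 450 (45.2%, 42.1 to 48.4), against 40.3% of the sequence. More than 50 kb from any protein-coding gene were 221 (22.2%, 19.7 to 24.9), against 38.6% of the sequence, and more than 500 kb away were 52 (5.23%), against 13.0%. Per base, gene ends thus held more regions and gene-poor sequence fewer, although more sites in all lay away from gene ends.

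**Figure D2:**
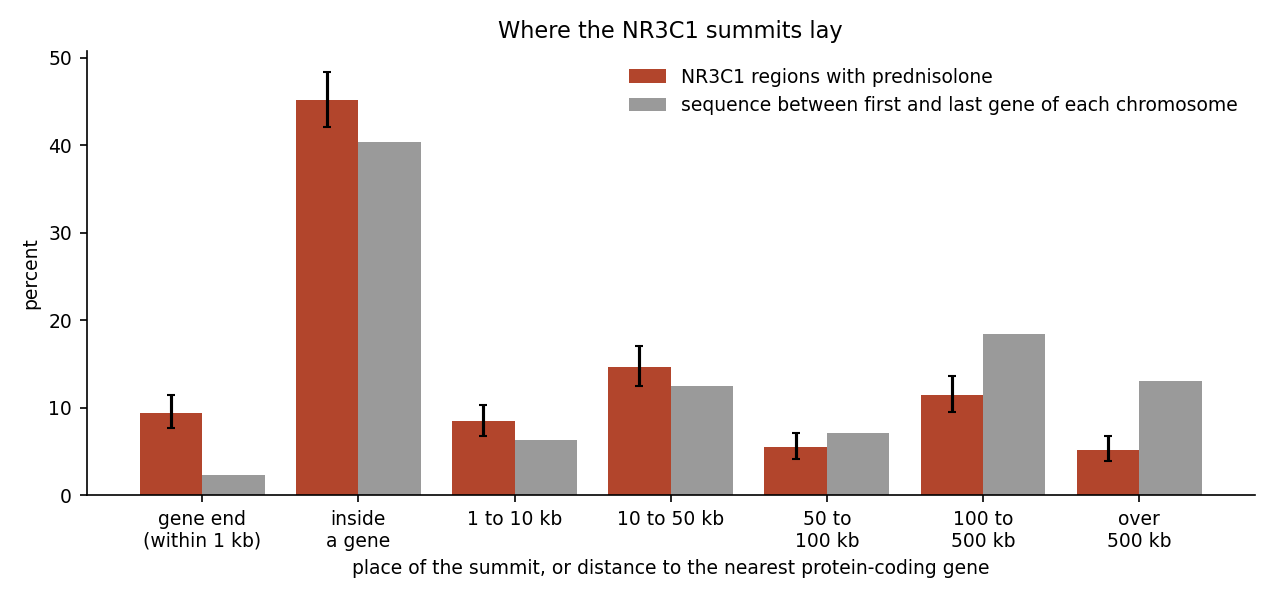
Percent of the 995 NR3C1 regions with prednisolone in each class of summit position (left bars, with exact 95% intervals) beside the percent of sequence in that class (right bars). Regions exceed the sequence share at gene ends (9.45% against 2.35%) and fall below it beyond 50 kb.

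For the 499 summits outside genes the median distance to the nearest one was 40357 bp. Of these, 236 lay before the start of that gene and 177 beyond its end, and the strand of the gene was not listed for 86. For the 408 summits inside genes of known strand, each gene was divided into 4 equal stretches from start to end, and 113, 118, 98 and 79 summits lay in these stretches in that order. At gene ends, 59 of 94 lay within 1 kb of a start, 13 at the other end alone, and 22 at genes of unlisted strand. Of the 221 summits more than 50 kb from a protein-coding gene, 77 lay inside an annotated long non-coding RNA gene.

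The median fold differed little with position, while the strongest regions were spread less evenly. The median fold was 7.76 at gene ends, 8.71 inside genes and 9.37 beyond 500 kb. A fold of 20 was reached by 26 of 146 regions at 10 to 50 kb and 3 of 55 at 50 to 100 kb. None of the 52 most distant regions reached it (highest 18.4). The list was also divided into 4 bands of equal size by −log10 q. From the strongest band to the weakest, the share at gene ends was 8.06%, 6.02%, 12.05% and 11.6%, so both weaker bands lay above both stronger ones. The share more than 50 kb from a gene was 18.1%, 25.7%, 20.9% and 24.1%, with no steady trend. The median width was 308.5 bp in the strongest band and 116 bp in the weakest. The strongest gene-end regions lay at FKBP5, at ZFPM1, which encodes a GATA cofactor (100 bp from an end, fold 51.8), at ARMC12 beside FKBP5 (fold 27.3), at WDR24, a gene of the GATOR nutrient-sensing complex (61 bp, fold 26.6), and at PWWP2B (442 bp, fold 32.3).

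The 3 regions farthest from a gene all lay on chromosome 22, between 2715742 and 4923101 bp before OR11H1, an olfactory receptor gene of a multi-copy family, with folds of 15.7, 8.07 and 10.8. They lie in repeat-rich sequence next to the centromere, where reads of near-identical copies cannot be told apart, so their position is uncertain. All 3 were also called in the N642H line. Per megabase, chromosomes 21, 17 and 22 held the most regions (0.576, 0.565 and 0.524). The count of chromosome 22 includes these 3 uncertain regions. That of chromosome 21 includes 3 regions nearest to LOC102724560, whose sequence was not checked for copies. X held the fewest of the chromosomes other than Y (0.128). X nevertheless held 6 regions of fold 20 or more, among them the pair near TSC22D3.

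Regions came mostly alone. With summits at most 25 kb apart joined, 818 regions stood alone and 177 (17.8%, 15.5 to 20.3) fell into 82 clusters, of which 71 had 2 regions, 9 had 3 and 2 had 4. The median gap between neighbouring summits was 1238615 bp, and 95 of the 971 gaps were at most 25 kb, 34 at most 5 kb and 15 at most 1 kb. Median folds were alike in and out of clusters (8.71 and 8.68), while a fold of at least 20 was reached by 31 of 177 clustered regions (17.5%) and 86 of 818 lone ones (10.5%). A single strong site beside weaker ones was the usual form of the stronger clusters. No region reached a fold of 20 in 57 clusters, 1 did in 19, and at least 2 did in 6, and the second strongest region had a median of 0.724 of the fold of the strongest.

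The largest cluster by summed fold lay on X between PRPS1, a nucleotide synthesis gene, and TSC22D3, the gene of the anti-inflammatory leucine zipper protein GILZ. Its 4 regions spanned 37059 bp, with folds of 73.8, 42.1, 8.71 and 8.71. The strongest (chrX:107674007-107674486, 127 reads) lay 38996 bp beyond the end of TSC22D3 and 23199 bp from PRPS1. TSC22D3 is read towards these sites, so they stood 101.8, 98.8, 75.5 and 64.7 kb from the start of its full span. Another region of fold 11.4 lay inside the gene. None stood before the start of that full span within 200 kb, and starts of shorter transcripts were not considered.

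The FKBP5 cluster also had 4 regions, with folds of 27.3, 7.36, 73.0 and 5.10 in the direction of transcription. They stood 3429 and 262 bp before the start of the gene and 0.454 and 18.03 kb after it. A further region lay 126 kb into the gene (chr6:35601859-35602334, fold 42.7, 121 reads). In KLF13 the strongest region stood 39.1 kb after the start, with 2 weaker ones at 34.8 and 26.5 kb (folds 8.99 and 7.96) and one 437 bp before the start (fold 12.6).

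**Figure D3:**
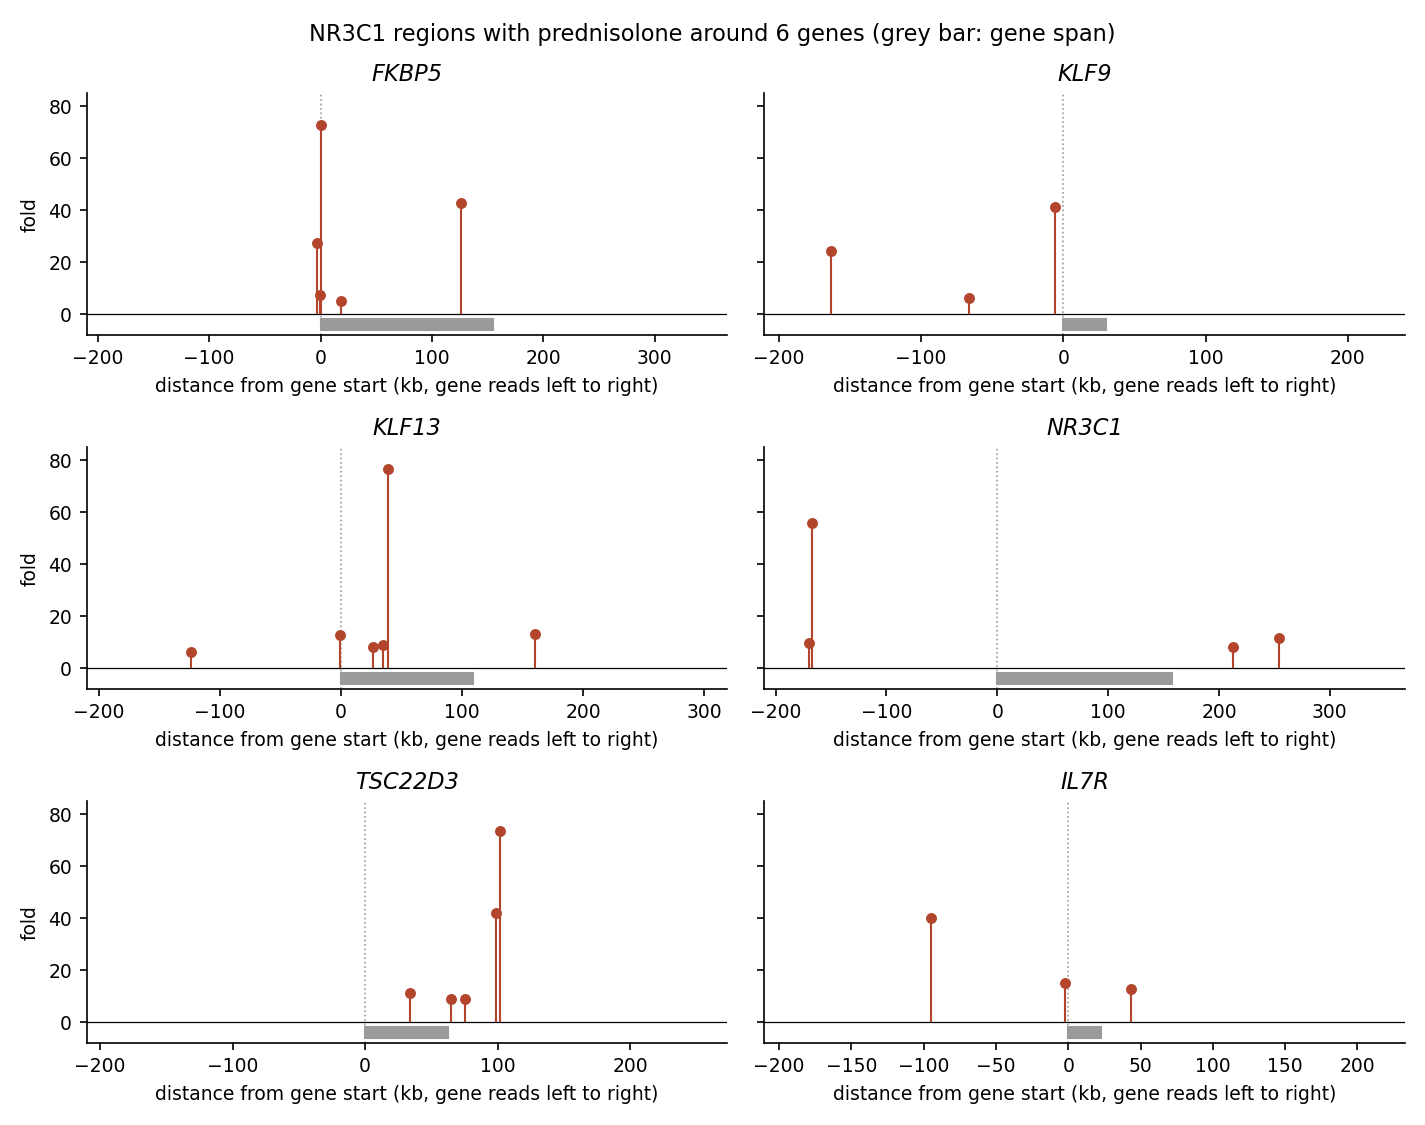
Fold of each NR3C1 region with prednisolone (vertical lines ending in circles) against distance of its summit from the gene's start in kb, for 6 genes drawn in the direction of transcription with their spans in grey. Strong sites stand at the start of FKBP5, inside KLF13, beyond the end of TSC22D3, and before the start of KLF9, NR3C1 and IL7R.

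Further clusters differed in how far they lay from a gene. Between 273867 and 308477 bp from PTPRC, which encodes the leukocyte phosphatase CD45, 3 regions within 34610 bp had folds of 11.9, 21.7 and 21.0. The distal ZFP36L2 site had 2 weaker neighbours (folds 6.77 and 5.10), and 3 regions of fold 4.05 to 10.4 lay within 21152 bp of each other, 949481 to 970633 bp from BCL11B, a T-lineage transcription factor gene. Between ANAPC16 and DDIT4, a stress-induced inhibitor of mTOR signalling, a pair 6301 bp apart had folds of 43.3 and 30.4. SRP14 and EIF2AK4, the gene of the amino acid sensor GCN2, shared 3 regions (folds 39.1, 6.76 and 8.52), and TBCD, a tubulin-folding cofactor gene, held 3 (25.1, 5.83 and 13.0).

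In contrast, 3 clusters of 3 weak regions had summits within 2232 bp or less of each other, with no fold above 10.4. One lay at CST2, which belongs to a family of near-identical genes. The others had SPATA31D4, 113041 bp or more away, and LOC102724560, 72831 bp or more away, as their nearest genes. How reads shared by near-identical copies were placed is not given in the sources used here, so the CST2 cluster is uncertain. Whether the sequence of the other clusters has such copies was not checked.

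A protein-coding gene was called linked when a summit lay inside it or no more than 20 kb away. With prednisolone 821 of 19396 genes were linked (4.23%), against 4 of 19396 in the untreated library (0.0206%). Of the 821, 727 had 1 region, 74 had 2, 14 had 3, 5 had 4 and 1 had 5. Long genes are linked more easily, and when genes were divided into 4 groups by span, 8.17% of the longest group and 2.02% of the shortest were linked, and linked genes had a median span of 62768 bp against 25351.5 bp for all genes.

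FKBP5 was the gene with 5 regions. Those with 4 were KLF13, the calcium/calmodulin-dependent kinase gene CAMK2D (folds 8.33, 39.2, 22.9 and 4.05), the thyroglobulin gene TG (strongest fold 18.7), MSI2, which encodes an RNA-binding protein (13.5), and FHIT (12.1). Among genes with 3, those with the highest −log10 q at a region were ARMC12, EIF2AK4, SRP14 and ZFPM1 (folds 9.60, 18.4 and 51.8). CAMK2D, TG, MSI2 and FHIT held all their regions inside long gene bodies. No expression values accompany these links, and a link does not show that a gene responded.

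The 18 gene lists and their members were chosen with earlier results of these data known, so their shares are descriptions. Glucocorticoid response genes had the highest linked share of these lists. Of 40 members 21 were linked with prednisolone (52.5%, against 4.23% of all genes) and 0 untreated, although their median span of 12475.5 bp was below that of all genes. The links ranged from strong sites at KLF13, FKBP5, ZFP36L2, CXCR4, KLF9, DDIT4, ZBTB16 and SOCS1 (fold 20 or more) to weak ones such as that 18590 bp from IRS2, an insulin receptor substrate gene (fold 6.55). DUSP1, which encodes a MAP kinase phosphatase, had a region 1355 bp from the gene (chr5:172772174-172772729, fold 19.2, 106 reads over 4.47). ZBTB16, a zinc finger repressor gene, held 3 regions in its span (folds 13.8, 28.2 and 26.0). TXNIP, a thioredoxin inhibitor gene induced by glucocorticoids, had a region of fold 9.28 at 10771 bp. With only summits inside the gene span counted, 10 of the 40 were linked (25%, against 2.30% of all genes).

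Among the 19 that were not linked, BTG1 had its fold 70.8 site at 109424 bp. PER1, the period gene known as a common glucocorticoid target, had no region within 200 kb, and its nearest lay 1962312 bp away. The list therefore holds both genes with the strongest sites of the library and genes without any site near them.

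**Figure D4:**
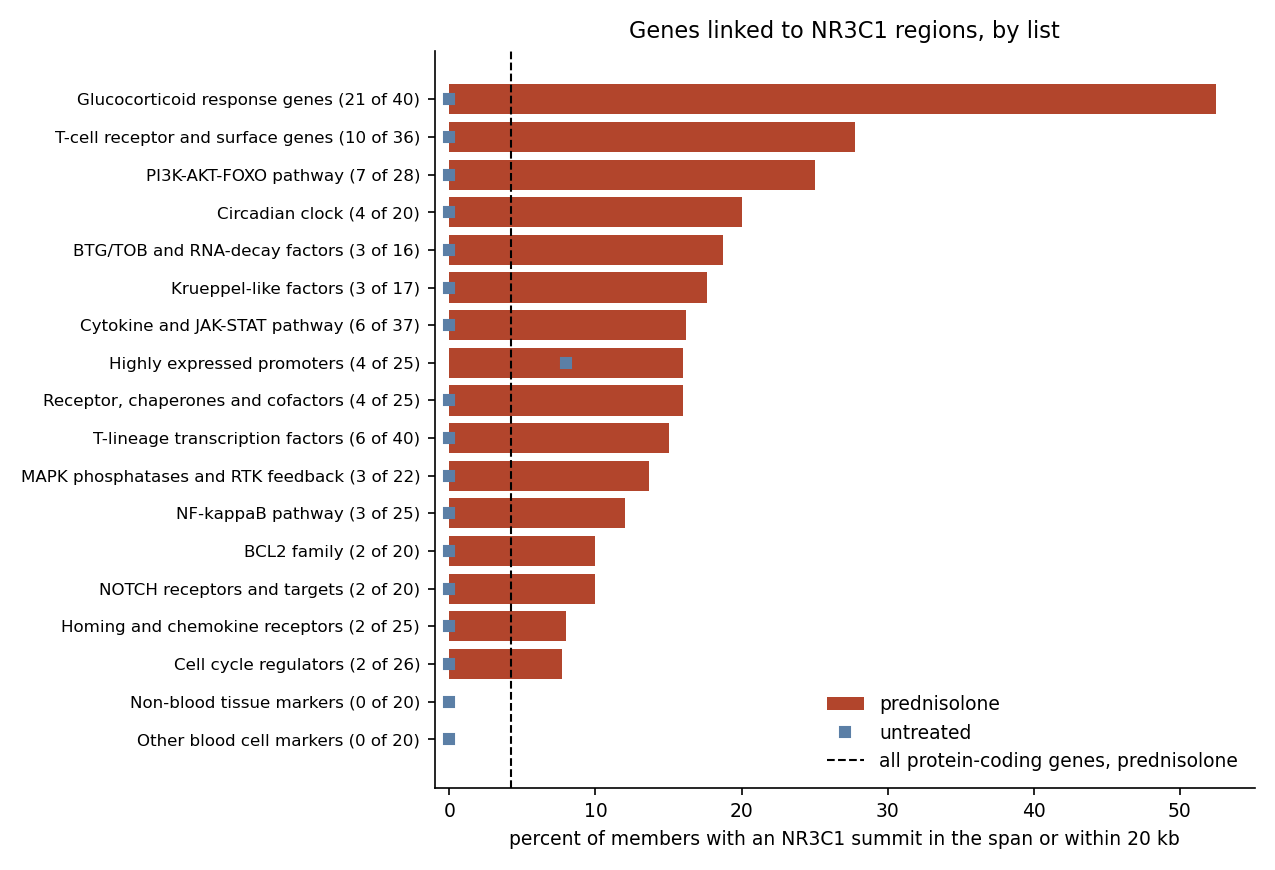
Percent of the members of each gene list with an NR3C1 summit in the span or within 20 kb, with prednisolone (bars) and untreated (squares); the dashed line is the 4.23% of all protein-coding genes linked with prednisolone. Glucocorticoid response genes reach 52.5%, and the 2 lists of markers of other tissues are at 0.

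The receptor and its machinery were linked at 4 of 25 members (16.0%, against 4.23% of all genes). The median span of this list was 87486 bp, against 25351.5 bp for all genes. NR3C1 itself had no region in its span or within 20 kb. Its strongest site (chr5:143601948-143602448, fold 55.9, 128 reads) stood 166695 bp before its start, with a weaker one at 169930 bp (fold 9.63), and others of fold 8.05 and 11.7 lay 54946 and 96523 bp beyond its end. Besides FKBP5 the linked members included FKBP4, the co-chaperone of the active receptor (fold 6.32), and HSPA8, a constitutive HSP70 gene (fold 8.10). Krueppel-like factors were linked at 3 of 17 (17.6%, 3.80 to 43.4), namely KLF13, KLF9 and KLF7 (fold 10.7). BTG/TOB and RNA-decay factors were linked at 3 of 16 (18.75%, 4.05 to 45.6), namely ZFP36L2, BTG2 (10.4) and ZFP36 (7.78). Both intervals held the 4.23% of all genes. TOB1 lay outside the 20 kb limit.

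In the BCL2 family, which sets the threshold for apoptosis, 2 of 20 members were linked (10.0%, 1.23 to 31.7). This interval held the 4.23% of all genes. BCL2L11, the gene of the pro-apoptotic protein BIM, had a region inside it (chr2:111157375-111157606, fold 10.5, 25 reads). BCL2L1, the gene of anti-apoptotic BCLXL, had a weaker one (chr20:31708451-31708562, fold 7.27, 13 reads). The nearest regions to BCL2 and MCL1, a pair of further survival genes, lay 538729 and 423006 bp away. BMF and BBC3, which encode pro-apoptotic BH3-only proteins, had theirs at 33102 bp (fold 8.52) and 62609 bp (fold 17.0). MYC had none within 200 kb, the nearest being 414535 bp away.

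T-cell genes were linked in part. Of 36 T-cell receptor and surface genes 10 were linked (27.8%, against 4.23% of all genes). This count rested on nearby and weak sites: it was 1 of 36 (2.78%, against 2.30% of all genes) with the summit inside the gene, 5 of 36 at −log10 q of at least 5 (13.9%, against 3.47%) and 4 of 36 at fold 10 or more (11.1%, against 1.70%). The strongest sites were near CD69, an early activation antigen (12696 bp, fold 29.4), CD7 (17318 bp, fold 27.3) and PTPRC (19362 bp, fold 24.4), with weak ones near RAG2, a recombinase gene (fold 10.5), CD2 (7.27) and CD3E (4.51). Of 40 T-lineage transcription factors 6 were linked (15%), with strong sites in RUNX2 (fold 39.9) and in IKZF1, the gene of Ikaros (fold 34.02), and weaker ones in IKZF3 (12.2) and near TOX (9.79), IKZF2 (6.10) and TCF7 (5.42). NOTCH receptors and targets, the pathway most often mutated in this leukaemia, had 2 of 20 (10%, 1.23 to 31.7), DTX1 (fold 12.2) and NOTCH3 (fold 7.55). Homing receptors had 2 of 25 (8%, 0.984 to 26.0), CXCR4 and CCR9 (fold 7.92). The intervals of the NOTCH and homing lists held the 4.23% of all genes. The median span of the T-lineage list (100932 bp) was well above that of all genes.

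Signalling lists showed single strong sites. In the PI3K, AKT and FOXO pathway 7 of 28 members were linked (25%, against 4.23% of all genes). The median span of this list was 89380 bp, against 25351.5 bp for all genes. Sites lay in IRS1 (fold 43.5) and MTOR (26.2), near DDIT4 (30.4) and RPTOR (20.8), and in PIK3IP1, an inhibitor of the pathway (14.3). Others lay in PIK3R1 (13.9) and, a weak one, near IRS2. In the cytokine and JAK-STAT pathway 6 of 37 were linked (16.2%, against 4.23% of all genes). SOCS1, a feedback inhibitor of JAK kinases, had a site 16635 bp away (fold 25.3). STAT5B held a site of fold 20.5 in its own span that also lay 7471 bp from STAT5A. IL7R had a region 2317 bp before its start (chr5:35854442-35854736, fold 14.9, 49 reads) and another 20378 bp beyond its end (fold 12.7), in addition to the strong site at 95128 bp. JAK1 held 2 (strongest fold 8.68) and STAT3 had one of fold 5.42.

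Clock genes were linked at 4 of 20 (20%, against 4.23% of all genes), among them DBP (fold 20.1), NPAS2 (19.6) and NR1D1 (15.6). MAP kinase phosphatases and feedback genes had 3 of 22 (13.6%, 2.91 to 34.9), DUSP1, DUSP2 (fold 29.0 at 18426 bp) and RASA1 (15.2). The NF-kappaB pathway had 3 of 25 (12%, 2.55 to 31.2), NFKBIA, BIRC3 (15.6) and MAP3K14 (8.71). The intervals of these last 2 lists held the 4.23% of all genes. NFKBIA, the gene of the inhibitor IkB-alpha and a known glucocorticoid target, had a region in its span (fold 9.64, 42 reads over 3.35). Cell cycle regulators had 2 of 26, CCND3 and CDK6 (fold 11.3), a share (7.69%) close to that of all genes.

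Markers of other blood cells and of tissues outside the blood were linked at 0 of 20 each (0 to 16.8%, against 4.23% of all genes). The interval of these short lists held the share of all genes. Their median spans (10030 and 12282.5 bp) were below the 25351.5 bp of all genes. The list named highly expressed promoters, a name not checked against RNA here, was linked at 4 of 25 (16.0%, against 4.23% of all genes). Its linked members were HSPA8, RPS7 (fold 7.72), and PGAM1 and COX17, the nearest genes of the 2 untreated regions. No other list member was linked in the untreated library. The list was chosen with earlier results of these data known, so these links are a description and no independent check. The links of this list rest in part on sites that were called without the ligand too.

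The same NR3C1 sites recurred in the N642H line under prednisolone, to an extent that followed their strength. Of the 995 regions 895 overlapped one of its 2888 regions (89.9%, 87.9 to 91.7). In the other direction 887 of the 2888 overlapped one of the 995 (30.7%). The share was 100% in the strongest band (248 of 248), 96.4% in the second, 88.4% in the third and 75.1% in the weakest. The 100 regions that did not recur had folds of 3.01 to 10.9, with a median of 6.87 against 8.997 for those that did, and 14.0% of them lay at gene ends against 8.94%. By −log10 q the strongest of them lay at SKIC2 (chr6:31959209-31959332, fold 10.9, 19 reads), an RNA exosome cofactor gene. The next in that order were 143638 bp from ERRFI1 (fold 9.84), 152115 bp from METRNL (9.79), 16166 bp from AHI1 (9.21) and in ETV6 (9.86).

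STAT5B regions of the same line met the NR3C1 regions in another pattern. With prednisolone 140 NR3C1 regions overlapped a STAT5B region (14.1%, 11.97 to 16.4), in which 18.4% of the 766 STAT5B regions took part. In the untreated STAT5B list 162 did (16.3%, 14.0 to 18.7), with 7.19% of its 2267 regions. By strength of the NR3C1 region, overlap with the prednisolone STAT5B list was 20.6% in the strongest band, 9.64% and 10.0% in the middle ones and 16.1% in the weakest. Overlap with the untreated STAT5B list was 11.3% in the strongest band, 15.3%, 16.5% and then 22.1% in the weakest. Of the 20 strongest NR3C1 regions, 16 were called for STAT5B with prednisolone and 5 untreated.

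**Figure D5:**
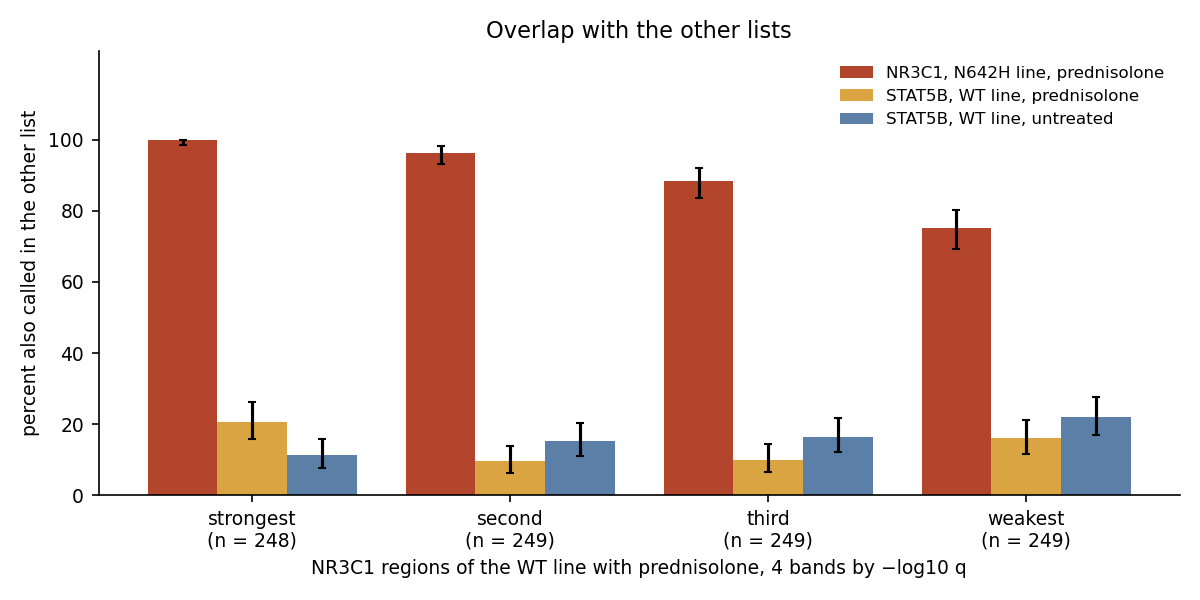
Percent of the NR3C1 regions of the WT line with prednisolone, in 4 bands by −log10 q, that were also called in 3 other lists, with exact 95% intervals. Recurrence in the N642H line goes down from 100% in the strongest to 75.1% in the weakest band, and overlap with the prednisolone STAT5B list is highest in the strongest band.

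Position separated these overlaps. At gene ends 35.1% of NR3C1 regions overlapped a STAT5B region with prednisolone and 41.5% one in the untreated list, against 11.6% and 13.3% inside genes. Among regions outside the strongest band, overlap with the prednisolone STAT5B list was 37.8% of 74 regions at gene ends and 9.06% of 673 elsewhere. In the strongest band it was 25% of 20 at gene ends and 20.2% of 228 elsewhere. Most regions of the strongest band lay away from gene ends whether or not they met STAT5B (46 of the 51 that met it, and 228 of all 248). Which input library served as control for which list is not given in the sources used here, and the part of a shared control in these overlaps was not tested.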

How the data were processed

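NR3C1 was immunoprecipitated from SUPT-1 cells that overexpressed wild-type STAT5B, with and without prednisolone, 1 library each. BWA, MACS2, deepTools and the build hg38 are named in the submitters' processing notes, and versions, the control and parameters are not given in the sources used here. For each region the authors deposited a span, a summit offset, a score (10 times −log10 q, cut to a whole number), a fold enrichment ratio, −log10 p and −log10 q. All p-values and q-values are the deposited ones, and with 1 library a side no test was run.

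Coordinates are counted from 1. Regions of 2 lists that shared 1 bp or more were counted as overlapping. Genes were the 19396 protein-coding genes with a curated transcript in a RefSeq table of GRCh38.p14, and 15517 of them had a strand in the RefSeq promoter table, whose sequences are shown. Reads at a summit and its background were solved from fold (pseudocount 1) and −log10 p under a Poisson model, with a unique solution for all 995 regions. In the prednisolone list 1 read counted as 0.894 in the fold, a scale found from the values, and in the untreated list as 1. Printed summit reads are unscaled counts. Printed backgrounds of the prednisolone list are the background in the fold divided by 0.894, so they are in reads of that library and are not counts of control reads. Exact Clopper-Pearson 95% intervals cover only counting error, over regions of 1 library. Motifs were searched on both strands. Python 3.11.15, pandas 2.3.3 and scipy 1.17.1 were used, and the counting functions were tested on simulated lists. Named genes were the nearest to the strongest, widest, farthest and weakest regions, those with most regions or clusters, up to 6 per list and 15 followed genes, and some of them are not reported here. Members and lists were chosen with earlier results of these data known. The alternatives were other overlap rules, thresholds, distances and link rules.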

Additional observations from a re-analysis of the deposited data

Results flagged for a closer look

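Outside the numbered chromosomes, X and Y the prednisolone list held 11 further NR3C1 regions and the untreated list 1, data that no comparison above uses. The 11 had folds of 7.19 to 21.8 and −log10 q of up to 48.4. The untreated one lay on an unplaced decoy sequence and had a fold of 2.48, with 59 reads over a local background of 23.2 reads. Such sequences hold copies of repeats, and the place of these reads in the genome is uncertain.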

How the results depend on the processing

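Of 38 alternative values of the main results, 23 stayed within the 95% interval of a share or median, or within 1.5 times a count, and 15 moved. Overlap of summits within 500 bp or of 50% of both regions left 993 gained regions, a −log10 q of at least 5 left 826, and a fold of at least 10 left 381. The median fold was 9.61 at −log10 q of at least 5. The gene-end share was 7.84% within 500 bp, 12.5% within 2 kb and 20.0% within 5 kb, and 6.79% for regions of fold 10 or more. The clustered share was 10.1%, 22.9% and 31.4% when summits up to 10, 50 and 100 kb apart were joined, 15.5% at −log10 q of at least 5 and 11.2% at fold 10 or more. Linked genes numbered 447 with the summit inside the gene, 1262 within 50 kb and 330 at fold 10 or more. The share also called in the N642H line was 65.1% with 50% overlap of both regions and 63.1% with lists of equal length. The cause of these shifts was not tested. Counts in the 18 gene lists stayed within 1.5 times in 82 of 108 cases. Motifs at the summits were not run, since no genome sequence was given. No paired analysis was possible because each group had 1 library, so no replicate could be left out either. The 2 untreated regions limit what can be said of the library without prednisolone, and its depth is unknown.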

Other observations

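The genes named for calcium/calmodulin-dependent kinases, a family that relays calcium signals, were singled out after their values were seen. The 12 genes include CAMK2N1 and CAMK2N2, which encode inhibitors of such kinases. Of the 12, 4 were linked (33.3%, against 4.23% of all genes), with 10 links in all. CAMK4, a kinase of T-cell signalling, held 2 regions in its span (folds 14.4 and 27.3), CAMK2D held 4, CAMK1D held 2 (14.99 and 12.3), and CAMKK1, an upstream kinase of the family, had 2 (8.13 and 35.3). Most of these 4 linked genes are long: their spans were 271304 bp for CAMK4, 310707 bp for CAMK2D, 485999 bp for CAMK1D and 32739 bp for CAMKK1. The unlinked ones spanned 2341 bp (CAMK2N2) to 108860 bp (CAMK2B).

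Of 1562 annotated miRNA hairpins, 27 had an NR3C1 summit within 20 kb (1.73%). This share was near the 2.02% of the shortest group of protein-coding genes. MIR4433A and MIR4433B, which overlap, met the same site and count separately. The strongest such site lay 4791 bp from MIR5006 (fold 40.3). MIR142, a miRNA abundant in blood cells, had one at 6984 bp (fold 7.66), and MIRLET7I one at 1000 bp (fold 5.804).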
